A study of Mus musculus with 2 samples.

Results

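The genes described here are 20 genes of DNA replication and 21 genes of mitosis, which were taken by symbol from the 27998 genes of the deposited matrices, and all 41 were found there. They were followed in cells of mouse inter-limb somites, the segmented blocks of mesoderm between the limb buds, from wild type C57BL/6 embryos at embryonic day (E) 9.5 and E11.5. Each stage is 1 single-cell RNA-sequencing library made from 3 embryos pooled before dissociation, with no allele or treatment in either group. The 41 genes were compared between stages and between classes of cells, to ask how DNA replication and mitosis genes were distributed over muscle and non-muscle cells. With 1 library per stage there was no replicate and no test was made. The 95% intervals given here are exact and cover counting error only, and a difference between stages cannot be told apart from a difference between the libraries.

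Cells with 200 to 6499 detected genes and under 15% mitochondrial UMIs were kept, which were 9851 of 10121 barcodes at E9.5 and 9595 of 10167 at E11.5, with 25 barcodes shared by both libraries. Their median depths were 12462 and 12479 UMIs (unique molecular identifiers, each counting 1 captured transcript). Every cell was thinned at random to 5000 UMIs, so that all cells were read at equal depth. This left 9314 and 8868 cells. Sums and single genes are given as UMIs per 1000000 UMIs (UPM) at this depth. Classes were set by counts of marker genes. Progenitors held at least 2 UMIs of Pax3 and Pax7 and none of Myf5, Myod1, Myf6 or Myog. Myoblasts held at least 2 UMIs of Myf5 and Myod1 and none of Myog. Myocytes held at least 3 UMIs of Myog and were contractile with at least 20 UMIs of 8 sarcomere genes and early below that. Cells with 1 or 2 Myog UMIs and at least 2 of Pax3, Pax7, Myf5 and Myod1 are called Myog-low, and cells that carried the markers of another tissue alone are the non-muscle cells. The classes took 56.9% of kept cells at E9.5 and 51.5% at E11.5.

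The markers fit most of these names, with 4 limits. The E9.5 myoblasts carried Myf5 at 186 UPM but Myod1 was at 0, whereas E11.5 myoblasts carried both, at 234 and 101. The E11.5 progenitors held Col1a2, a collagen gene of connective tissue, at 474 UPM, against 58.0 at E9.5. The E9.5 neuron class held Tubb3, a neuronal tubulin, at 899 UPM, against 2609 at E11.5, so only the E11.5 neurons serve below as the class with few dividing cells. The E11.5 cells chosen by Pax2, Pax8 and Emx2, genes of the kidney lineage, held Col1a2 at 709 and Twist1 at 654 UPM and are called by these 3 genes. Only 25 cells were myocytes at E9.5, of which 20 were deep enough to be thinned, against 458 and 422 at E11.5.

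Before a cell copies its DNA, the MCM helicase (Mcm2 to Mcm7) is loaded at origins with the help of Cdc6, and Cdc45 then joins it to open the helix. Cyclin E (Ccne1, Ccne2) drives entry into this phase, ribonucleotide reductase (Rrm1, Rrm2), thymidylate synthase (Tyms) and thymidine kinase (Tk1) supply the building blocks, and Pcna clamps the polymerases to DNA. Mitosis follows under Cdk1 with cyclins A and B, Aurora and Polo kinases, and motor proteins that shape the spindle, and it ends when Cdc20 and Ube2c direct the destruction of cyclins. In the somite, dividing Pax3 and Pax7 progenitors give rise to Myf5 and Myod1 myoblasts. Myocytes, which express Myog, leave the cell cycle as they differentiate and later fuse into fibres.

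Replication genes are known to be switched on mainly through E2F sites and mitosis genes through CCAAT boxes and cell cycle homology regions (CHR), and the promoters of 3 members of each list are shown for these letters. RefSeq promoter sequences (GRCm38.p6, the same assembly as mm10) were matched by symbol for 35 of the 41 members, 18 of replication and 17 of mitosis, and the 250 bases before the annotated start are printed 5′ to 3′ on the strand of the gene. Capitals mark CCAAT, the CHR letters TTTGAA and TTTAAA and 4 forms of the E2F letters, TTTCCCGC, TTTGGCGC, TTTCGCGC and TTTGCCGC, on either strand and where they overlap.
Mcm6 (chr1:128359706-128359955, minus strand): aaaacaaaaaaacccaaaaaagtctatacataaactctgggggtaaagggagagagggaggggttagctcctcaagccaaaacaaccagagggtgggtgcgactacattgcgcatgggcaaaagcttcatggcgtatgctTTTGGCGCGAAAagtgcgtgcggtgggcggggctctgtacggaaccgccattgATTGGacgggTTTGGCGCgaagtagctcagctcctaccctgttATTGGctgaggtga
Mcm5 (chr8:75109259-75109508, plus strand): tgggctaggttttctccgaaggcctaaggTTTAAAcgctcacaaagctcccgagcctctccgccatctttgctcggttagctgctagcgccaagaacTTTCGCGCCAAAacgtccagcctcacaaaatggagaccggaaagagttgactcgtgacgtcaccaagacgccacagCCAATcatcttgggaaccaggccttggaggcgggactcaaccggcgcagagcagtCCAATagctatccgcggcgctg
Pcna (chr2:132253181-132253430, minus strand): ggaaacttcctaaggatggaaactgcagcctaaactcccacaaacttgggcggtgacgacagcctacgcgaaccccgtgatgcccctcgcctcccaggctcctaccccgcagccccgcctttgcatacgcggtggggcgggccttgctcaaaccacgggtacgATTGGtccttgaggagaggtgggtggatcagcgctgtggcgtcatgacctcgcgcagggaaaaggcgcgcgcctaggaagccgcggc
Cdk1 (chr10:69352913-69353162, minus strand): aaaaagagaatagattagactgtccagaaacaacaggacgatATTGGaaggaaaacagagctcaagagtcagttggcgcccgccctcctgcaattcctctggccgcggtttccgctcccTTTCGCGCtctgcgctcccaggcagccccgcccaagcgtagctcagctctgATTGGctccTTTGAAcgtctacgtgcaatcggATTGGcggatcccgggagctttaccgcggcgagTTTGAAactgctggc
Ccnb2 (chr9:70421555-70421804, minus strand): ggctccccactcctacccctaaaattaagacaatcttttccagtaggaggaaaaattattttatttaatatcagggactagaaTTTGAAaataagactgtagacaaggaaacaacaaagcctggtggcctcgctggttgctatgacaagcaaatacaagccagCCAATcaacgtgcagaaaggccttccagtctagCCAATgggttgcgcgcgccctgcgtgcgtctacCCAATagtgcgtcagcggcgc
Top2a (chr11:99024190-99024439, minus strand): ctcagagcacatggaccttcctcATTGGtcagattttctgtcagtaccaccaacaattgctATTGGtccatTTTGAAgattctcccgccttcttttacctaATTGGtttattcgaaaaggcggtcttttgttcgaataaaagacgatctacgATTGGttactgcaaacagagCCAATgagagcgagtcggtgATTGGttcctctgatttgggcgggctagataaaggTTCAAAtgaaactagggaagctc

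In the window before Mcm6, which encodes a helicase subunit, 3 E2F matches and 2 CCAAT boxes were found, and before Mcm5, another subunit, 2 E2F matches, 2 CCAAT boxes and 1 CHR. Before Pcna, the polymerase clamp, there was 1 CCAAT box alone. Before Cdk1, the kinase that starts mitosis, there were 3 CCAAT boxes, 2 CHR and 1 E2F match, and before Ccnb2, its cyclin partner, 3 CCAAT boxes and 1 CHR. Before Top2a, which untangles chromosomes, there were 6 CCAAT boxes and 2 CHR. Over the members with a sequence, CCAAT was found before 16 of 17 mitosis genes and 11 of 18 replication genes, against 37.5% of the 27025 genes in the promoter table. CHR letters were found before 11 of 17 mitosis genes and 5 of 18 replication genes, against 28.1% of all genes. E2F letters were found before 4 of 18 replication genes and 1 of 17 mitosis genes, against 2.16%. Where a gene has several starts, a match in any of them was counted. These are matches of letters in this window, and binding was not measured.

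Both sums were lower at E11.5 than at E9.5 in progenitors and non-muscle cells, while in myoblasts the mitosis sum and in myocytes the replication sum was lower. In progenitors (652 cells at E9.5, 124 at E11.5) the replication genes summed to 2607 UPM at E9.5 and 2029 at E11.5, a log2 ratio of -0.36 (-0.45 to -0.28). Their mitosis genes summed to 3679 and 3202, a ratio of -0.20 (-0.27 to -0.13). In myoblasts (127 and 302 cells) the replication sum was 2339 and 2226, with a ratio of -0.07 whose interval includes 0 (-0.16 to 0.02) and whose sign was the opposite with gates at 3 UMIs (0.03), gates read on thinned counts (0.09) or the sum without Rrm2 (0.01). The mitosis sum of myoblasts was 3764 and 2872, a ratio of -0.39 (-0.46 to -0.32). The myoblast classes were unlike, with Myod1 at 0 and 101 UPM and Cdkn1c at 279 and 3901. The part of this in the myoblast stage ratios, also of single members, was not tested. In myocytes the replication sum was 1870 and 1229, a ratio of -0.61 (-0.82 to -0.38), and the mitosis sum was 2140 and 2073, a ratio of -0.05 (-0.24 to 0.16), with 20 E9.5 cells behind both. The mix of myocytes differed, since 7 of the 20 cells at the earlier stage were contractile against 363 of 422 at the later one. The replication sum was 2338 and 2044 in early myocytes and 1000 and 1097 in contractile ones, with overlapping intervals in each. The mitosis sum was 2554 and 2247 in early myocytes, with overlapping intervals, and 1371 (1011 to 1818) and 2045 (1980 to 2112) in contractile ones. The stage ratios of the whole class, also of single members, cannot be told apart from its mix. In non-muscle cells (4703 and 3758 cells) the replication sum was 2729 and 1905, a ratio of -0.52 (-0.54 to -0.50). Their mitosis sum was 4045 and 3369, a ratio of -0.26 (-0.28 to -0.25). Without thinning the mitosis sums of E11.5 were higher, at 3591 UPM in progenitors, 3358 in myoblasts, 2452 in myocytes and 3898 in non-muscle cells. Those of E9.5 were higher too, at 3879, 3921, 2385 and 4249. The stage ratios of the mitosis sum were then nearer to 0, at -0.11 in progenitors, -0.22 in myoblasts and -0.12 in non-muscle cells. In myocytes the ratio had the opposite sign, at 0.05 (-0.04 to 0.13). The unthinned replication sums of E11.5 were 2054, 2294, 1260 and 1913 in the same order, against 2564, 2433, 1727 and 2663 at E9.5. In such sums, fewer cells with these transcripts and fewer transcripts in each such cell cannot be told apart.

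**Figure D1:**
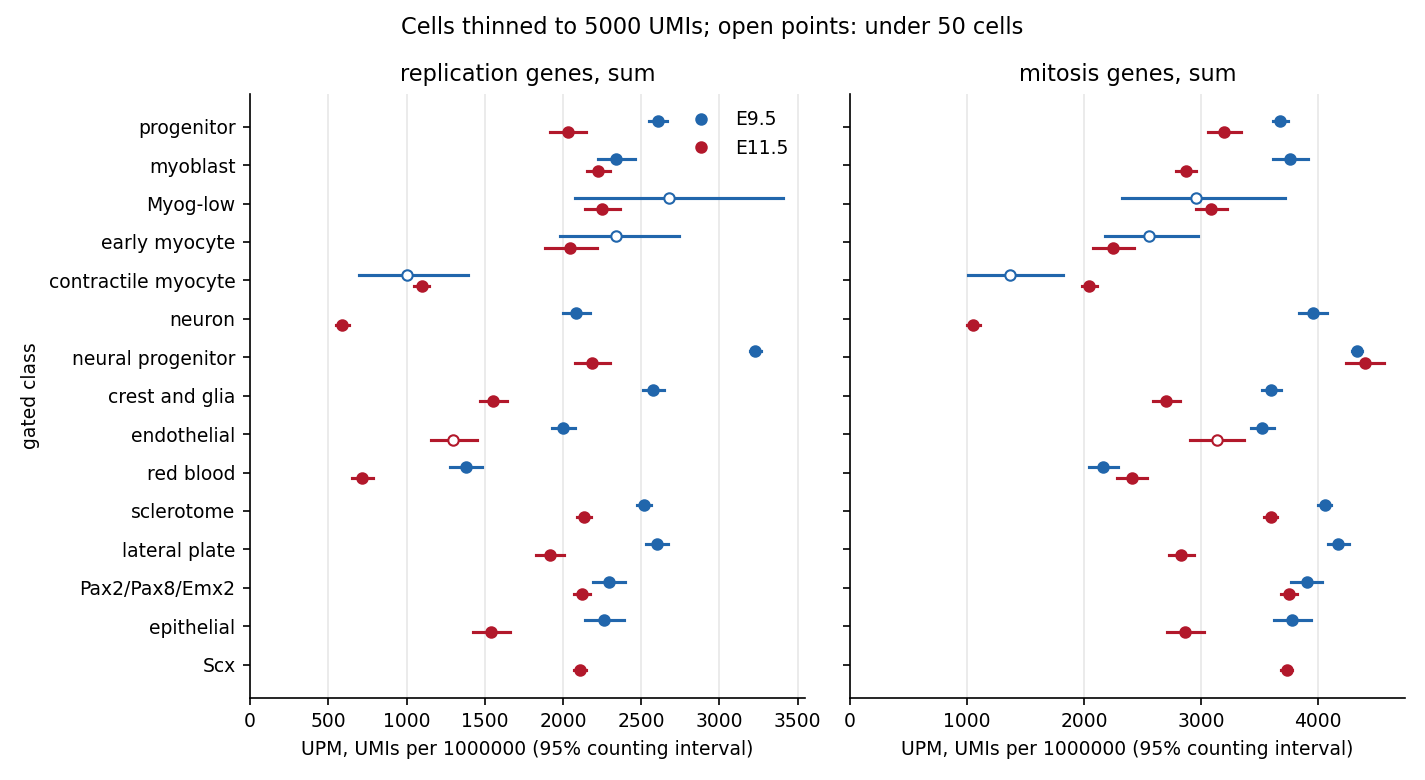
Summed UPM of the 20 replication genes (left) and the 21 mitosis genes (right) in each class of cells at E9.5 (blue) and E11.5 (red), with 95% counting intervals, after thinning to 5000 UMIs per cell; open points hold under 50 cells. The replication sum sits lower at E11.5 in progenitors (2029 against 2607) and in all 9 non-muscle classes compared, and the mitosis sum of red blood cells sits higher (2410 against 2164).

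The spread of the mitosis genes over single cells differed between the stages in a way that the sums do not show. At E9.5 nearly every progenitor carried them: the 10th, 50th and 90th percentiles were 7, 16 and 32 mitosis UMIs per cell of 5000 UMIs. At E11.5 the same percentiles were 1, 11.5 and 41.7. The low end was lower and the high end was higher. Myoblasts went from 7, 18 and 32 to 0.1, 8.5 and 36, and non-muscle cells from 7, 17 and 37 to 0, 9 and 47. For the replication genes the low end and the median were lower, going from 7, 13 and 20 to 3, 9 and 20 in progenitors and from 6, 13 and 22 to 2, 8 and 20 in non-muscle cells. In myoblasts they went from 6, 11 and 18 to 4, 10 and 21.

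The share of progenitors with at least 5 mitosis UMIs was 73.4% at E11.5 against 98.0% at E9.5. With at least 5 replication UMIs it was 75.8% against 97.5%. Among myoblasts the mitosis share was 97.6% and 64.6%, whereas the replication share was 96.1% and 86.4%. Among non-muscle cells both shares were lower at E11.5, at 58.9% against 94.98% for mitosis and 71.8% against 95.8% for replication. None of the 652 E9.5 progenitors was under 5 UMIs of both lists, which allows a share of up to 0.460% (3 counts of 652) or 0.564% by the Clopper-Pearson limit, while 8.06% (3.94% to 14.3%) of E11.5 progenitors were. For non-muscle cells the share under 5 of both was 1.28% and 16.1%. For comparison, 12.3% of E11.5 neurons held at least 5 mitosis UMIs, 15.8% at least 5 replication UMIs and 81.4% neither. The 31 neurons with at least 5 mitosis UMIs held a median of 33 of them. A lower share, 2.50% for mitosis and 1.67% for replication, was found in the E11.5 myocytes with the most contractile UMIs, described below. Median depth before thinning was 13937 UMIs in E11.5 progenitors and 9254 in E11.5 neurons. It was 9717 in the 10 E11.5 progenitors under 5 of both lists and 14921 in the 91 with at least 5 mitosis UMIs. In E11.5 neurons the same depths were 10055.5 and 14779. The part of depth in these shares was not tested. Among cells with at least 5 mitosis UMIs the median was 16 mitosis UMIs in E9.5 and 17 in E11.5 progenitors, and 18 and 22.5 in sclerotome cells, the future vertebrae and ribs.

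**Figure D2:**
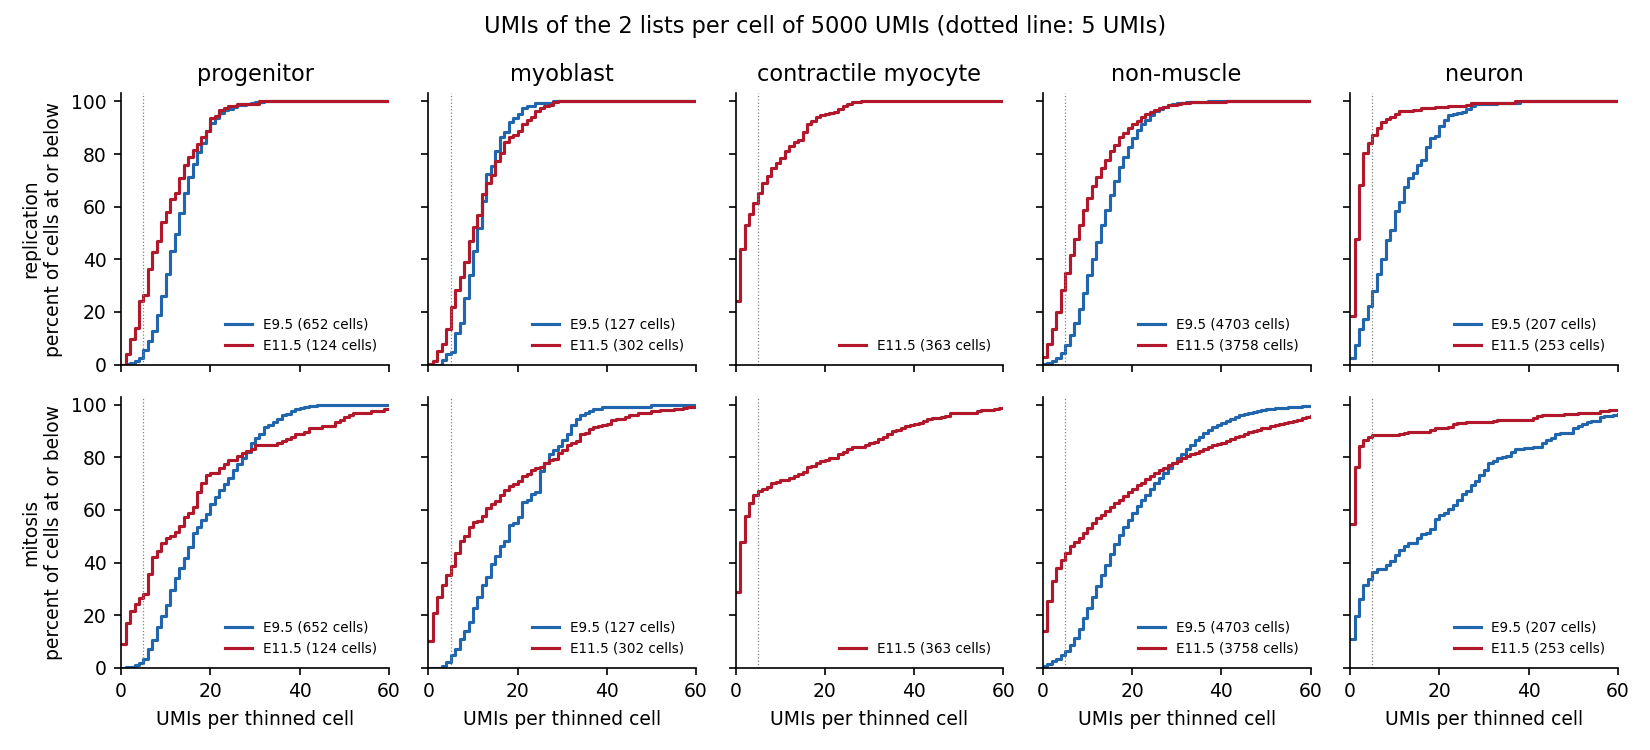
Cumulative percent of cells (vertical axis) by UMIs of the replication list (top) or the mitosis list (bottom) per cell of 5000 UMIs, at E9.5 (blue) and E11.5 (red), for classes with at least 50 cells; the dotted line marks 5 UMIs. In the mitosis panels of progenitors, myoblasts and non-muscle cells the 2 curves cross, with more E11.5 cells at both the low and the high end (progenitor medians 16 and 11.5).

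The E11.5 progenitor class was mixed. The 45 of its cells with at most 3 Col1a2 UMIs held Pax7 at 111 UPM, and the 79 with more held it at 7.59. The mitosis sum was 2351 (2155 to 2560) in the first and 3686 (3499 to 3880) in the second, and the replication sum 2227 (2036 to 2430) and 1916 (1782 to 2058). Their median depths were 13733 and 14044 UMIs. Restricted to progenitors with at most 3 Col1a2 UMIs at both stages, the stage ratio of the mitosis sum was -0.63 and that of the replication sum -0.24. The Col1a2 limit was chosen after the values were seen. Single members are given below for the whole progenitor class, in which 79 of the 124 E11.5 cells held more than 3 Col1a2 UMIs. Their stage ratios in progenitors can thus follow this mix, which was not tested by gene. The non-muscle class pools several tissues, and its mix differed too. Of its 4703 thinned E9.5 cells 1925 were neural progenitors, against 129 of 3758 at the later stage. The single-gene ratios of non-muscle cells are thus not ratios within a tissue, and the part of this mix in them was not tested.

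By gene, 3 of the 41 members (Ccne2, Ung and Prc1) were at least 2-fold lower at E11.5 in progenitors and none was 2-fold higher, against 7.49% of the 6813 genes compared that were lower and 7.28% that were higher. In myoblasts none of 40 compared was past 2-fold in either direction (3.66% of all genes lower, 7.50% higher). In myocytes Pcna and Tk1 of 36 compared were lower and Ccne1, Rpa2, Cenpe and Nusap1 higher (7.55% and 19.0% of all genes). In non-muscle cells 3 of 41 (Ccne2, Pcna and Mybl2) were lower and none higher (4.82% and 17.2% of all genes). A gene was compared when both classes together held at least 50 of its thinned UMIs. The median log2 ratio of the replication members was -0.43 in progenitors, -0.05 in myoblasts, -0.77 in myocytes and -0.50 in non-muscle cells, and that of the mitosis members -0.24, -0.51, -0.03 and -0.30. Over all genes compared it was -0.01, -0.05, 0.01 and 0.16. Most members thus lay within 2-fold. In progenitors the share at least 2-fold lower was near that of all genes, while none was 2-fold higher, against 7.28% of all genes. About 5% of such intervals leave out 0 by counting error alone. They treat each UMI as independent and do not cover the spread between cells. More than 5% can therefore leave out 0 where there is no difference.

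**Figure D3:**
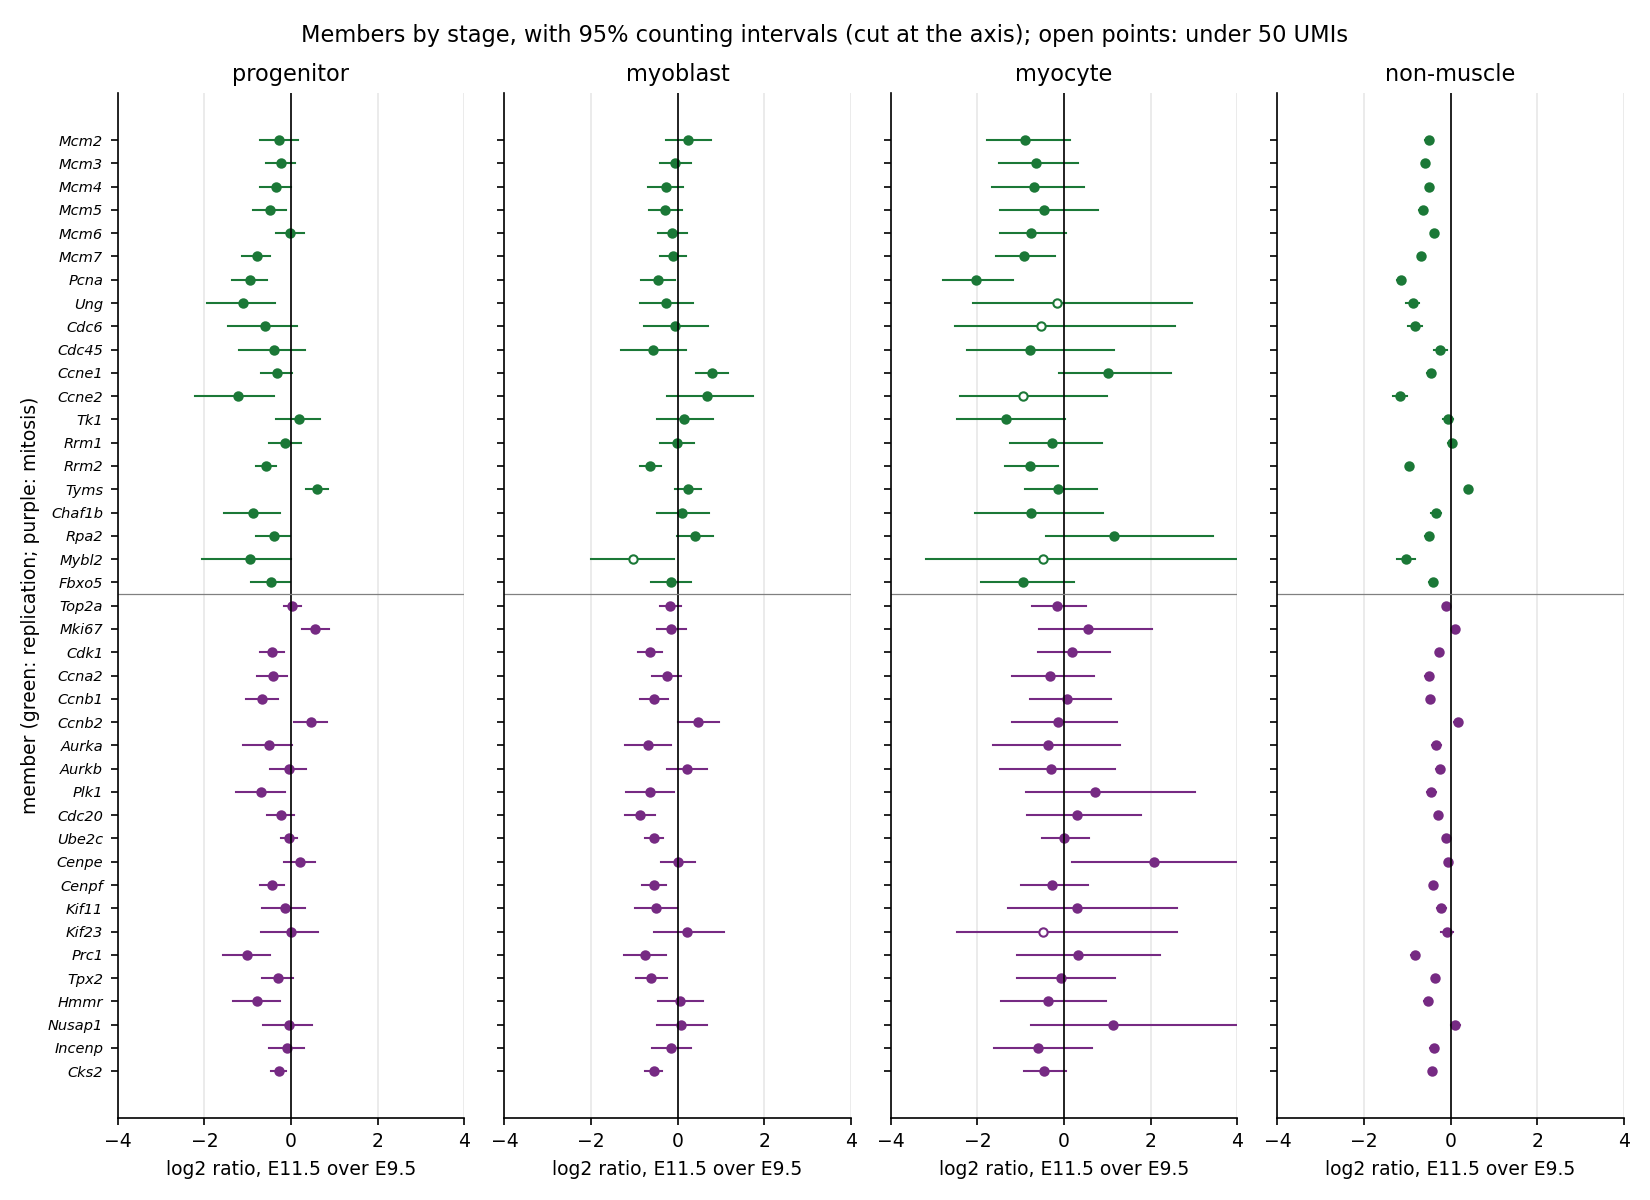
Log2 ratio of E11.5 over E9.5 (horizontal axis) for each of the 41 members in progenitors, myoblasts, myocytes and non-muscle cells, with 95% counting intervals cut at the axis; green marks replication, purple mitosis, and open points have under 50 UMIs. Pcna lies left of 0 in all 4 panels (-0.94, -0.45, -2.03 and -1.15), and Tyms lies right of it in progenitors (0.60) and non-muscle cells (0.41). The non-muscle panel pools tissues whose mix differed between the stages.

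Among the replication genes, the helicase subunits were lower at E11.5 in the pooled non-muscle cells, with log2 ratios from -0.39 (Mcm6) to -0.68 (Mcm7). Mcm7 went from 283 to 177 UPM there and from 246 to 142 in progenitors, a ratio of -0.79 (-1.13 to -0.47). Mcm6 was level in progenitors, at 165 and 163. In myoblasts the intervals of all 6 subunits included 0, from -0.28 (Mcm4, Mcm5) to 0.25 (Mcm2). For Mcm3 the levels were 164 and 140 in progenitors, 146 and 142 in myoblasts, and 201 and 134 in non-muscle cells.

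Pcna, the clamp of the polymerases, was lower at E11.5 in all 4 classes. It went from 177 to 91.9 UPM in progenitors, from 143 to 105 in myoblasts, from 170 to 41.7 in myocytes and from 177 to 79.8 in non-muscle cells. The myocyte value rests on 17 UMIs at E9.5, and the mix of early and contractile myocytes differed between the stages. Ung, which removes uracil from DNA, went from 55.8 to 25.8 in progenitors, a ratio of -1.11 (-1.95 to -0.37), and from 56.1 to 30.6 in non-muscle cells. Chaf1b, a histone chaperone subunit, was lower in progenitors (70.9 and 38.7) and close in myoblasts (55.1 and 59.6). The origin factors Cdc6 and Cdc45 were lower in non-muscle cells, with ratios of -0.82 and -0.24, and their intervals included 0 in the 3 muscle classes.

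The cyclins E parted. Ccne2 had the lowest ratio of any replication member in progenitors, -1.23 (-2.21 to -0.38), from 45.4 to 19.4 UPM, and in non-muscle cells, -1.16, from 49.6 to 22.2. Ccne1 was higher at E11.5 in myoblasts, at 215 against 124, a ratio of 0.79 (0.43 to 1.16). It was lower at E11.5 in non-muscle cells, at 80.6 against 110, a ratio of -0.45 (-0.54 to -0.36). At E11.5 Ccne1 was at 119 in progenitors, 215 in myoblasts, 211 in Myog-low cells, 210 in early myocytes, 107 in contractile myocytes and 15.8 in neurons. The levels in myoblasts, Myog-low cells and early myocytes lie within their counting error, and each lies above the level in progenitors. The progenitor class was mixed, and the part of its mix in this difference was not tested. The E9.5 myoblasts held no Myod1, unlike those of E11.5, and the part of this in the stage ratio of Ccne1 was not tested.

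Of the enzymes of nucleotide supply, Tyms had the opposite sign to its list. It was at 166 UPM in E9.5 and 252 in E11.5 progenitors, a ratio of 0.60 (0.34 to 0.86), and at 156 and 208 in non-muscle cells, 0.41 (0.34 to 0.48). Rrm2, the regulatory subunit of ribonucleotide reductase, went the other way, from 413 to 279 in progenitors, from 378 to 245 in myoblasts and from 430 to 220 in non-muscle cells. Rrm1, the catalytic subunit, was close at both stages, with 136 and 124 in progenitors, 126 and 125 in myoblasts and 128 and 131 in non-muscle cells. Tk1 was at 58.3 and 66.1 in progenitors and 54.0 and 51.7 in non-muscle cells. Mybl2, a transcription factor of the late cycle, went from 29.5 to 14.5 in non-muscle cells, a ratio of -1.03. Fbxo5, an inhibitor of the anaphase-promoting complex, was lower in non-muscle cells (-0.40) and Rpa2, which coats single-stranded DNA, was too (-0.51), but Rpa2 was at 102 and 134 in myoblasts, 0.39 (-0.02 to 0.82). The 2 myocyte ratios past 2-fold upwards, of Ccne1 (1.02) and Rpa2 (1.16), rest on 6 and 3 UMIs at E9.5, and Tk1 (-1.35) rests on 7.

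Among the mitosis genes, Cdk1, the kinase that starts mitosis, was lower at E11.5 in progenitors (279 and 206 UPM), myoblasts (296 and 191) and non-muscle cells (270 and 223). Its partners differed. Ccnb1 was lower in the same classes, with ratios of -0.66, -0.53 and -0.47, and Ccna2 in progenitors (-0.42) and non-muscle cells (-0.51). Ccnb2 was higher in all 3, from 84.7 to 116 in progenitors, 0.46 (0.06 to 0.83), from 78.7 to 109 in myoblasts, 0.47 (0.01 to 0.96), and from 111 to 124 in non-muscle cells, 0.16 (0.08 to 0.24). The Aurora kinase gene Aurka was lower in myoblasts, at 51.7 against 83.5, while Aurkb was at 85.0 and 98.7 there. Plk1, the Polo kinase, was lower in progenitors (-0.68), myoblasts (-0.63) and non-muscle cells (-0.44).

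Mki67, the gene of the Ki-67 antigen used as a mark of cycling cells, was higher at E11.5 in progenitors, from 118 to 174 UPM, 0.56 (0.24 to 0.88). In myoblasts it was at 173 and 156 and in non-muscle cells at 162 and 173. Top2a, which untangles chromosomes, was at 391 and 400 in progenitors and 410 and 378 in non-muscle cells. Prc1, which bundles spindle microtubules in late mitosis, had the lowest ratio of any mitosis member in progenitors, from 104 to 51.6, -1.01 (-1.58 to -0.49), and in non-muscle cells, from 143 to 81.3. It was at 101 and 59.6 in myoblasts. Hmmr, a spindle assembly factor, was at 93.9 and 54.8 in progenitors.

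Cdc20 and Ube2c, which act with the anaphase-promoting complex, differed most in myoblasts. Cdc20 had the lowest mitosis ratio there, -0.87 (-1.21 to -0.52), from 198 to 109 UPM, and Ube2c went from 507 to 347. In progenitors Ube2c was level, at 447 and 432, and Cdc20 was at 185 and 156. Both were lower in non-muscle cells, Cdc20 with a ratio of -0.30 (171 and 139) and Ube2c with -0.10 (507 and 475). Of the kinetochore and spindle genes, Cenpf was lower in progenitors (-0.43), myoblasts (-0.55) and non-muscle cells (-0.40), and Tpx2, which activates Aurora A, was lower in myoblasts (-0.61) and non-muscle cells (-0.36). Cks2, a binding partner of Cdk1, was lower in all 3 (-0.29, -0.55 and -0.42). The kinesin gene Kif11 was lower in myoblasts (-0.51) and non-muscle cells (-0.21). Its relatives Kif23 and Cenpe were near 0 in non-muscle cells (-0.07 and -0.06), and Incenp, of the chromosomal passenger complex, was at -0.38. Nusap1, a microtubule binding protein, was at 78.8 and 85.3 in non-muscle cells, 0.11 (0.02 to 0.21). In myocytes Cenpe (2.07) and Nusap1 (1.14) rest on 2 E9.5 UMIs each, Plk1 (0.72) on 3, Mki67 (0.56) on 6, and Incenp (-0.59), Cks2 (-0.46), Hmmr (-0.37) and Aurka (-0.36) on 8, 38, 7 and 5.

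Several members not yet given lay at the ends of their list or had the opposite sign to it. In progenitors Mybl2 was at 31.0 and 16.1 UPM, a ratio of -0.94, and Cenpe, a kinetochore motor, at 108 and 124, a ratio of 0.21 (-0.17 to 0.57). In myoblasts Ccne2 was at 18.9 and 30.5, a ratio of 0.69 (-0.25 to 1.74), and Tyms (0.24), Tk1 (0.16) and Chaf1b (0.11) also lay above 0. Of the mitosis members of myoblasts, Kif23 (0.23), Aurkb (0.21), Nusap1 (0.08), Hmmr (0.05) and Cenpe (0.01) lay above 0 as well, and all of these intervals include 0. In myocytes Fbxo5 (-0.94), Mcm7 (-0.93) and Mcm2 (-0.89) followed Pcna and Tk1 at the low end. The mitosis members Prc1 (0.32), Cdc20 (0.31), Kif11 (0.30), Cdk1 (0.18), Ccnb1 (0.07) and Ube2c (0.01) lay above 0 there, on 3 to 31 UMIs at E9.5.

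Within the E11.5 muscle classes, progenitors and myoblasts lay close and myocytes as 1 class were lower in both sums. Myoblasts had a replication sum of 2226 against 2029 in progenitors, a log2 ratio of 0.13 (0.04 to 0.23), and a mitosis sum of 2872 against 3202, a ratio of -0.16 (-0.23 to -0.08). Against the progenitors with at most 3 Col1a2 UMIs these ratios were -0.00054 and 0.29, so both depend on how progenitors were chosen. The ratios of single members to progenitors can follow this mix too, which was not tested by gene. None of 40 members was past 2-fold between myoblasts and progenitors, against 2.08% of all genes lower and 1.81% higher in myoblasts. The highest ratios were those of Ccne1, 0.85 (0.48 to 1.24), Ung (0.82), Ccne2 (0.65), Chaf1b (0.62) and Mcm7 (0.57), and the lowest were Cdc20 (-0.53), Cks2 (-0.39), Tk1 (-0.37), Top2a (-0.34) and Ube2c (-0.32). Against the sign of the mitosis sum, Hmmr (0.42), Ccna2 (0.26), Ccnb1 (0.25), Nusap1 (0.25), Prc1 (0.21), Aurkb (0.10) and Aurka (0.09) were higher in myoblasts, with intervals that include 0. Against that of the replication sum, Mcm4 (-0.28), Rrm2 (-0.19), Tyms (-0.14) and Cdc45 (-0.06) were lower, likewise with 0 in their intervals. The Myog-low cells (142 cells) had sums of 2248 for replication and 3089 for mitosis.

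Early and contractile myocytes in 1 class had a replication sum of 1229 against 2226 in myoblasts, a ratio of -0.86 (-0.93 to -0.78), and a mitosis sum of 2073 against 2872, a ratio of -0.47 (-0.53 to -0.41). Random thinning moved the last ratio by more than its interval: it was -0.58 with another seed and -0.54 as the mean over cells of their own shares. Of 40 members 7 were at least 2-fold lower in myocytes and none higher, against 5.50% and 7.78% of all genes. The median over all genes was -0.13, that of the replication members -0.89 and that of the mitosis members -0.50. The lowest ratios were those of Cdc6 (-1.41), Ung (-1.34), Pcna (-1.33), Kif23 (-1.30) and Aurkb (-1.03), followed by Chaf1b (-1.02) and Rpa2 (-1.01). The highest were those of Plk1 (0.05, -0.40 to 0.50), Ube2c (-0.16), Prc1 (-0.26), Cdc45 (-0.26) and Cdk1 (-0.27).

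For replication the largest step along the muscle classes was the last. Early myocytes (59 cells) had a replication sum of 2044, close to the 2248 of Myog-low cells, and contractile myocytes (363 cells) 1097, a ratio of -0.90 (-1.03 to -0.76) between the last 2. The mitosis sums were 3089, 2247 and 2045. These 2 myocyte classes were split on counts at full depth, and their median depths before thinning were 12981 and 17727 UMIs. Steps between them, also of single members, thus cannot be told apart from depth. Ordered by contractile UMIs at equal depth, the mitosis sum of myocytes went from 3756 to 212 UPM (below). Against E11.5 neurons, at 589 for replication and 1053 for mitosis, contractile myocytes were higher, by log2 ratios of 0.90 (0.78 to 1.02) and 0.96 (0.87 to 1.05). This held for the class and not for its cells with the most contractile UMIs, which lay under the neurons at 182 and 212 UPM (below). The neuron class was mixed too, so its sums are not the level of a typical neuron. Of its 253 cells, 31 held at least 5 mitosis UMIs, with a median of 33, and 206 were under 5 of both lists, with a median of 0 mitosis UMIs. Compared with non-muscle cells the myocytes as 1 class were lower, by -0.63 (-0.69 to -0.57) for replication and -0.70 (-0.74 to -0.66) for mitosis. Those with 0 to 9 contractile UMIs were higher, at 2257 and 3756 UPM against 1905 and 3369 in non-muscle cells. The part of depth in this was not tested (below). Contractile myocytes held Ube2c at 318 UPM against 268 in early myocytes, and Plk1 at 52.9 against 27.1, with intervals of the ratio that include 0. By contrast, Pcna was at 36.4 against 74.6, Cdc6 at 10.5 against 33.9 (19 and 10 UMIs) and Chaf1b at 22.0 against 74.6.

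**Figure D4:**
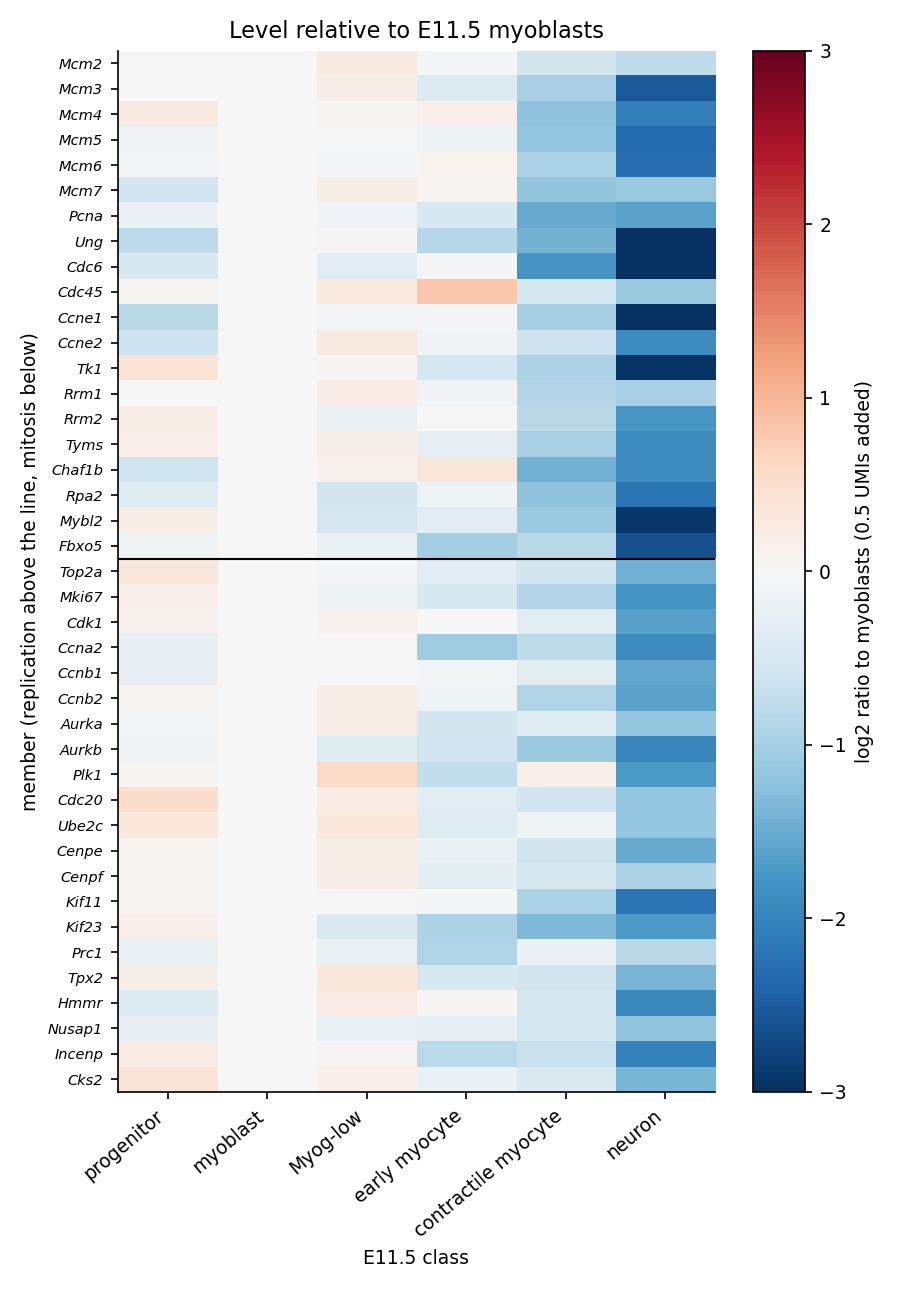
Level of each of the 41 members (rows) in 6 classes of E11.5 cells (columns) as log2 ratio to myoblasts, with 0.5 UMIs added, from blue (lower) to red (higher). Contractile myocytes and neurons are blue in most rows, and Plk1 and Ube2c in contractile myocytes (52.9 and 318 UPM) are close to the 47.7 and 347 of myoblasts. These are levels of a mixed class, in which 125 of 363 contractile myocytes held a median of 25 mitosis UMIs and 200 a median of 1.

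The contractile myocytes ranged from cells with many of these transcripts to cells with few. Of the 363 cells, 125 (34.4%, 29.6% to 39.6%) held at least 5 mitosis UMIs, with a median of 25, and 200 (55.1%) were under 5 of both lists, with a median of 1 UMI of each. The other 38 held at least 5 replication UMIs only. The name contractile rests on a count at full depth. Of the E11.5 myocytes with 0 to 9 contractile UMIs per cell of 5000 UMIs, 110 held at least 5 mitosis UMIs. Among early myocytes 34 cells did, so most of the 125 cells had few contractile UMIs at equal depth. In the 125 cells Myog was at 1736 UPM, the 8 contractile genes at 2918, Ttn, the giant sarcomere protein, at 606 and Cdkn1a, an inhibitor of cyclin-dependent kinases, at 414. In the 200 they were at 3963, 31367, 3641 and 1534. In E11.5 myoblasts with at least 5 mitosis UMIs the contractile genes were at 796. The fusion genes Mymk and Mymx were at 89.6 and 312 in the 125 cells and at 502 and 796 in the 200. Cdkn1c, another such inhibitor, was high in both, at 8397 and 11286, and Ccnd2, a cyclin of the G1 phase, was at 144 and 42.0. Median depth was 23978 UMIs in the 125 cells and 16464 in the 200. Scrublet scores among the highest 8% of the library were found in 10.4% of contractile myocytes with at least 5 mitosis UMIs and in 3.36% of the others. The part of doublets and depth in this split was not tested.

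Ordered by contractile UMIs at equal depth, the 422 E11.5 myocytes went from the levels of myoblasts or above to almost none of these transcripts. Of the 147 with 0 to 9 contractile UMIs per cell of 5000, 74.8% held at least 5 mitosis UMIs and 86.4% at least 5 replication UMIs, and their sums were 3756 (3618 to 3899) and 2257 (2150 to 2368) UPM. Of the 97 with 10 to 29 contractile UMIs, 37.1% and 53.6% did, with sums of 2276 and 1476. Of the 58 with 30 to 99, 17.2% and 12.1% did, with sums of 1321 and 379. Of the 120 with 100 or more, 2.50% (0.519% to 7.13%) and 1.67% (0.202% to 5.89%) did, and the sums were 212 (176 to 252) for mitosis and 182 (149 to 219) for replication, both under the levels of the neurons. Median depths in the 4 groups lay between 16144 and 19139 UMIs. The group with 0 to 9 contractile UMIs was the deepest, at 19139, against 16044 in E11.5 myoblasts. The Myog limit of all 422 cells was read at full depth, and the part of depth in these levels was not tested. The ranges were chosen after the data were seen. The limit of 20 contractile UMIs at full depth cuts through this gradient, with 50 of the 458 myocytes at 10 to 19 and 131 at 20 to 40 contractile UMIs.

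**Figure D5:**
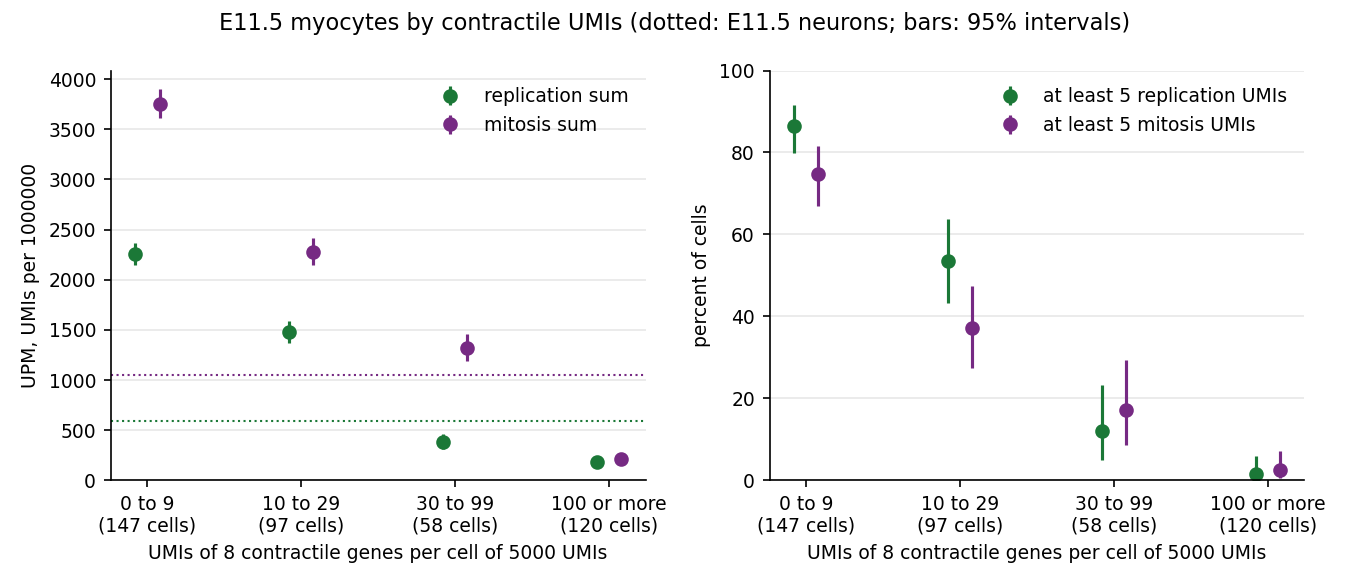
Summed UPM (left) and percent of cells with at least 5 UMIs (right) of the replication (green) and mitosis (purple) genes in E11.5 myocytes by contractile UMIs per cell of 5000 UMIs (horizontal axis), with 95% intervals and E11.5 neurons as dotted lines. Mitosis sums go from 3756 at 0 to 9 contractile UMIs to 212 at 100 or more.

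Among non-muscle classes with enough cells at both stages, the replication sum was lower at E11.5 in 9 of 9, with log2 ratios from -1.82 to -0.11, and the mitosis sum in 7 of 9. The neuron classes differed most, with 2084 and 589 UPM for replication and 3956 and 1053 for mitosis, but they are unlike classes, since the E9.5 one held Tubb3 at 899 UPM against 2609 and 66.2% of its cells held at least 5 mitosis UMIs against 12.3%. In neural progenitors the replication sum was 3229 and 2186, a ratio of -0.56 (-0.64 to -0.49), while the mitosis sum was 4332 and 4400, 0.02 (-0.03 to 0.08). Their mitosis percentiles spread from 9, 19 and 39 UMIs per cell to 0, 11 and 67.2. The sclerotome had ratios of -0.24 and -0.17, and the E11.5 Scx cells, named for a tendon transcription factor and nearly without E9.5 counterpart (1 cell), had sums of 2108 and 3733. The non-muscle class held 1925 thinned neural progenitors at E9.5 and 129 at E11.5, so its mix differed. With the 9 classes weighted alike its stage ratios were -0.67 for replication and -0.39 for mitosis, and without the neurons the other 8 gave -0.53 and -0.20.

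Red blood cells, most of which are nucleated primitive erythrocytes at these stages, were the 1 class of the 9 whose mitosis sum was higher at E11.5 with an interval above 0. Their replication sum was 1378 at E9.5 (107 cells) and 715 at E11.5 (120 cells), a ratio of -0.95 (-1.12 to -0.77), and their mitosis sum was 2164 and 2410, a ratio of 0.16 (0.04 to 0.27). Globin UMIs count in the UPM of these cells, and the part of their share in these ratios was not tested. As in the other classes, fewer red blood cells held at least 5 mitosis UMIs at E11.5 (82.2% and 67.5%), and the percentiles spread from 3, 10 and 19.4 UMIs per cell to 0.9, 9 and 27. Mki67 went from 194 to 398 UPM, 1.03 (0.70 to 1.38), Nusap1 from 26.2 to 130, Cenpf from 84.1 to 143 and Ube2c from 207 to 297, while Ccnb1 was lower, from 161 to 76.7. Of the replication genes, Mcm5 went from 101 to 33.3 and Pcna from 69.2 to 16.7, the latter on 37 and 10 UMIs. Cells with at least 5 mitosis but under 5 replication UMIs were 28.0% and 42.5% of red blood cells, the highest such share among the E11.5 classes.

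A further 38 replication genes and 44 mitosis genes were counted in the same way. In progenitors 2 of 38 and 1 of 42 compared were at least 2-fold lower and none was higher (7.49% and 7.28% of all genes). Their medians were -0.25 and -0.15. In myoblasts 1 of 35 and 3 of 39 were lower and none higher (3.66% and 7.50% of all genes). The median of -0.27 of these replication genes lay further from 0 than the -0.05 of the members, with -0.25 for mitosis. In myocytes 6 of 27 and 3 of 28 were lower (7.55% of all genes). None and 2 were higher (19.0% of all genes), and the medians were -0.67 and -0.33. In non-muscle cells 4 of 38 and none of 44 were lower (4.82% of all genes), with medians of -0.43 and -0.19. Between myocytes and myoblasts at E11.5, 12 of 36 other replication genes and 4 of 40 other mitosis genes were lower, against 5.50% of all genes, with Dtl, a ubiquitin ligase subunit of S phase, at -1.52 and Kif4, a chromosome kinesin, at -1.18 the lowest. The lowest stage ratios in non-muscle cells were those of Mcm10, an origin factor (-1.48), and Mad2l1, of the spindle checkpoint (-0.83), and the highest those of Prim1, a primase subunit (0.14), and Cdkn3, a phosphatase of cyclin-dependent kinases (0.62).

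Over 26 points of class and stage, the genes outside the lists of members whose log2 level was most like the replication sum included Bub1 (Pearson r 0.96), Tipin (0.95), Chaf1a (0.95) and Hnrnpf (0.95). Those most like the mitosis sum were Cdca8 (0.94), Hmgb2 (0.93), Sgol1 (0.93), Cenpa (0.92) and Lrr1 (0.91). The points of a stage share 1 library and 5888 genes with at least 1000 UMIs were ranked, so this is a description only. Bub1, Chaf1a, Cdca8, Sgol1 (now Sgo1) and Cenpa were on the further lists, and Tipin, Hnrnpf, Hmgb2 and Lrr1 were not.

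Genes that restrain or drive the cycle were read in the same cells. Cdkn1c was at 165 UPM in E9.5 and 1995 in E11.5 progenitors, at 279 and 3901 in myoblasts and at 228 and 1457 in non-muscle cells. At E11.5 it was at 10073 in contractile myocytes. Cdkn1a was at 9.27 in E11.5 myoblasts, 129 in early and 1030 in contractile myocytes, and the cyclin genes Ccnd1 and Ccnd2 went from 88.7 and 332 in myoblasts to 26.4 and 96.4 in contractile myocytes, whereas Ccnd3 was at 375 and 394. Within E11.5 myoblasts, Cdkn1c was at 3585 in the 195 cells with at least 5 mitosis UMIs and at 4840 in the 10 cells under 5 of both lists.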

How the data were processed

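The deposited matrices hold UMI counts per gene and cell, made by the authors with 10x Genomics Cell Ranger 3.0.1 against mm10, 1 per stage. No per-sample columns were left over (0). Counts were read with Python 3.11.15, numpy 2.4.6, scipy 1.17.1, pandas 2.3.3 and scanpy 1.11.5. Cells with 200 to 6499 genes and under 15% mitochondrial UMIs were kept and thinned to 5000 UMIs (seed 1), leaving out 537 (E9.5) and 727 (E11.5) shallower cells. Classes were gated on full counts by marker lists, with at most 1 UMI of neural genes in muscle classes. Red blood cells held at least 10% globin UMIs. Levels are UMIs per 1000000 (UPM) with exact 95% Poisson intervals, ratios have exact conditional intervals and shares have Clopper-Pearson intervals. Whether reads of paralogs or overlapping genes were mixed could not be checked, since only counts per gene were used.

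A gene was past a call at 2-fold with at least 50 UMIs in the classes compared. Named members are the 5 highest and 5 lowest ratios in each comparison and those with the opposite sign to their list. Beyond these, members are described by role. Of the further lists 3 symbols were found under an older name, by Ensembl identifier. The members and lists were chosen with earlier results of these data known. Scrublet marked 7.17% of barcodes at E9.5 but 1 of 10167 at E11.5, so it did not work there and doublets were not removed. Thinning and ratios were tried on simulated counts with known folds. These counts held no variation between cells, so they do not show how the intervals behave here. Alternatives were the thinning, gates, filters, doublet removal and weights given in the closing section. 1 of the genes most like the replication sum is not reported here.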

Additional observations from a re-analysis of the deposited data

Results flagged for a closer look

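The mitosis sum of red blood cells was higher at E11.5 than at E9.5, with a log2 ratio of 0.16, whereas it was lower in progenitors, myoblasts and 7 of 9 non-muscle classes. The difference between the classes was not tested, and neither was the part of globin UMIs, which count in the total of red blood cells.

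Ccne1, which encodes cyclin E1, was higher at E11.5 in myoblasts, with a log2 ratio of 0.79, and lower in non-muscle cells, with -0.45. This difference was not tested either. The myoblast classes were unlike, with Myod1 at 0 and Cdkn1c at 279 UPM at E9.5, against 101 and 3901 at E11.5. The mix of tissues in the non-muscle class differed too. The part of both in these ratios was not tested.

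Barcodes over the limit of 6499 genes, which no comparison used, carried both lists of transcripts. The 143 such barcodes at E9.5 held replication genes at 1961 and mitosis genes at 3766 UPM, against 2614 and 4008 in kept cells. The 126 at E11.5 held 1572 and 4449, against 1912 and 3707.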

How the results depend on the processing

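Sums were recomputed under 15 to 17 alternatives for each of 14 log2 ratios, and of 266 alternative values 196 lay within their counting interval or, for counts of members, within 1.5 times the first value, 68 lay outside and 2 reversed a ratio whose interval leaves out 0. The ratios of progenitor, non-muscle and myocyte replication sums and the mitosis ratios of progenitors, myoblasts and non-muscle cells between stages kept their sign under every alternative run. Those of the myoblast replication sum (-0.17 to 0.09) and the myocyte mitosis sum (-0.18 to 0.13) did not. In all 10 ratios had the opposite sign, of which 8 were of these last, whose intervals include 0, and 2 were the ratios of myoblasts to progenitors, with progenitors of at most 3 Col1a2 UMIs. The log2 ratios that lay outside were as follows, with stage meaning E11.5 over E9.5 and the others read at E11.5. Without the most abundant member of each list (Rrm2 or Cks2), replication was -0.45 (non-muscle stage) and mitosis was -0.24 (non-muscle stage). As the mean over members of the log2 ratio, replication was -0.54 (non-muscle stage), and mitosis was -0.32 (myoblast stage), -0.063 (myoblast over progenitor) and -0.54 (myocyte over myoblast). Thinned to 3000 UMIs, replication was -0.54 (non-muscle stage), and mitosis was -0.28 (progenitor stage), -0.017 (myoblast over progenitor), -0.59 (myocyte over myoblast) and -0.75 (myocyte over non-muscle). Thinned to 8000 UMIs, replication was -0.49 (non-muscle stage) and -0.71 (myocyte over non-muscle), and mitosis was -0.22 (non-muscle stage), -0.55 (myocyte over myoblast) and -0.81 (myocyte over non-muscle). Without thinning, replication was -0.47 (non-muscle stage), and mitosis was -0.11 (progenitor stage), -0.22 (myoblast stage) and -0.12 (non-muscle stage). With another seed, replication was -0.54 (non-muscle stage), and mitosis was -0.58 (myocyte over myoblast) and -0.79 (myocyte over non-muscle). With gates at 1 UMI, replication was -0.17 (myoblast stage). With gates at 3 UMIs and Myog at 6, replication was -0.27 (progenitor stage), 0.029 (myoblast stage), -1.13 (myocyte over myoblast) and -0.86 (myocyte over non-muscle), and mitosis was -0.28 (progenitor stage), -0.30 (myoblast stage), -0.65 (myocyte over myoblast) and -0.83 (myocyte over non-muscle). With gates read on thinned counts, replication was 0.093 (myoblast stage), -0.65 (non-muscle stage), -1.197 (myocyte over myoblast) and -0.82 (myocyte over non-muscle), and mitosis was -0.47 (myoblast stage), -0.28 (non-muscle stage), -0.72 (myocyte over myoblast) and -0.84 (myocyte over non-muscle). Without Scrublet calls, replication was -0.54 (non-muscle stage). Without the highest 8% of Scrublet scores, replication was -0.55 (non-muscle stage), and mitosis was -0.57 (myocyte over myoblast) and -0.77 (myocyte over non-muscle). Without an upper limit on genes, replication was -0.46 (progenitor stage) and 0.23 (myoblast over progenitor). With at least 1000 genes per cell, mitosis was -0.54 (myocyte over myoblast). With progenitors of at most 3 Col1a2 UMIs, replication was -0.24 (progenitor stage) and -0.00054 (myoblast over progenitor), and mitosis was -0.63 (progenitor stage) and 0.29 (myoblast over progenitor). As the mean over cells, mitosis was -0.54 (myocyte over myoblast) and -0.75 (myocyte over non-muscle). With the 9 non-muscle classes weighted alike, replication was -0.67 (non-muscle stage) and mitosis was -0.39 (non-muscle stage). Without the neurons among them, mitosis was -0.20 (non-muscle stage). Read at 1.5-fold, the members lower at E11.5 were 11 in progenitors (17.7% of all genes), 7 in myoblasts (13.0%), 12 in myocytes (20.5%) and 10 in non-muscle cells (11.5%), those higher were 1 in progenitors (17.6%) and 2 in myoblasts (14.8%), 4 were higher in myoblasts than in progenitors (6.57%) and 23 were lower in myocytes than in myoblasts (17.2%). With at least 20 UMIs, or 1 in each class, 1 member (Mybl2) was 2-fold lower in myoblasts. With 3 UMIs in place of 5, the share of cells (E11.5 minus E9.5, percentage points) was -8.91 for replication in progenitors, -45.0 for mitosis in myocytes, and -12.2 for replication and -30.6 for mitosis in non-muscle cells. The cause of each difference was not tested, also where an alternative uses other cells. Alternatives that change the depth or the cells kept before thinning also draw the UMIs anew. At E11.5 the Scrublet calls removed 1 barcode, a neuron, and the mitosis ratio of myocytes over myoblasts went from -0.47 to -0.52. Differences under such alternatives thus include random thinning. The Scrublet scores, the mean over cells, the Col1a2 limit and the equal weights were chosen after seeing the data. No paired analysis was possible because each stage is 1 library. The counting intervals do not cover differences between libraries or the spread between cells, and the E9.5 myocytes are 20 thinned cells.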
